A study of Homo sapiens with 27 samples.

Results

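The BCL2 family sets how easily a cell enters apoptosis, and 10 of its genes were followed here across every treatment of REH cells. The genes were taken as a listed set: BCL2, BCL2L1 and MCL1, which oppose apoptosis, BCL2L11, BBC3, PMAIP1, BID and BAD, which promote it through a BH3 domain, and the effectors BAX and BAK1. They are 10 of the 60619 genes in the count tables, of which 56434 could be given a symbol. REH is a long-established human cell line from a B-cell precursor acute lymphoblastic leukemia with the ETV6/RUNX1 fusion. The study asked what happens to transcription when each of 4 lncRNAs linked to that fusion is lowered with LNA GapmeRs, which are short antisense oligonucleotides with locked nucleic acid ends that lead RNase H to cut a paired RNA.

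Mitochondrial apoptosis is decided by contacts between these proteins. BCL2, BCL-XL (the main product of BCL2L1) and MCL1 bind and hold back BAX and BAK1, the effectors that open pores in the outer mitochondrial membrane and let cytochrome c out. BH3-only proteins such as BIM (BCL2L11), PUMA (BBC3), NOXA (PMAIP1), BID and BAD occupy the guards or act on the effectors themselves. Lymphoid leukemia cells often depend on BCL2 or MCL1, and both are drug targets. Much of the family's control lies in protein turnover and modification, which RNA counts do not show.

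All 27 samples were REH cells harvested 72 h after medium alone or an oligonucleotide at 10 µM, which the cells took up without a transfection reagent. The controls were medium (2 samples) and a non-targeting GapmeR (NTC, 3 samples). Each lncRNA had 2 GapmeRs, with 2 samples of lnc-NKX2-3-1 GapmeR1, 3 of its GapmeR2, 3 for either GapmeR of lnc-TIMM21-5 and of lnc-RTN4R-1, 3 of lnc-ASTN1-1 GapmeR1 and 2 of its GapmeR2. Every group is the same cell line, with no fusion-negative line beside it, and medium cells received no oligonucleotide at all. The methods describe the replicates as biological triplicates made on different days. Medium and lnc-NKX2-3-1 GapmeR1 have no replicate 3, and lnc-ASTN1-1 GapmeR2 no replicate 2.

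The oligonucleotides are shown because they are what was varied by design between the treated groups, and because a change in a family member could be read against its own pairing with them. They are written 5′ to 3′, as designed by the study.
NTC: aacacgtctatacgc
lnc-NKX2-3-1 GapmeR1: tgctctgtgcggattg
lnc-NKX2-3-1 GapmeR2: ctgatttttagtagtg
lnc-RTN4R-1 GapmeR1: gcattcatgggttaag
lnc-RTN4R-1 GapmeR2: tgctgagacatctagg
lnc-TIMM21-5 GapmeR1: aattttgcatttggta
lnc-TIMM21-5 GapmeR2: gtcactttaattttgc
lnc-ASTN1-1 GapmeR1: taatctgccaggagtg
lnc-ASTN1-1 GapmeR2: gtctgaagtaatgga
All 8 targeting GapmeRs paired without a mismatch to a spliced transcript of their own target. None of the 10 family genes held, on its transcribed strand, a site with at most 1 mismatch to any of the 9 oligonucleotides. Spliced transcripts of the family had at least 3 mismatches to every one. A single site with 2 mismatches lay in an intron of BCL2L1, for lnc-ASTN1-1 GapmeR2 (chr20:31719917-31719931, minus strand, GRCh38), with the unpaired bases in capitals.
BCL2L1 intron: tccaGtactGcagac
Such a site with at most 2 mismatches was present in 5.14% of the 16024 tested genes searched. BCL2L1 was at 73.9 and 72.8 CPM (counts per 1000000 library counts) in the samples given that GapmeR and between 77.4 and 83.3 CPM in the 5 controls, so the groups did not overlap, but the difference did not pass the test (log2 fold change -0.14, 95% interval -0.27 to -0.02, edgeR adjusted p = 1). The share of all genes whose groups did not overlap was not counted. A match of letters describes the sequence only, and binding was not measured.

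Depth was even, with 14627110 to 22750945 counts per sample in the strand column used. Each target lncRNA was lower in all of the 22 samples given its own GapmeRs than in any control sample. The mean was 15.2% of the controls for lnc-NKX2-3-1, 15.7% for lnc-TIMM21-5, 25.25% for lnc-RTN4R-1 and 45.1% for lnc-ASTN1-1. In the controls lnc-NKX2-3-1 was at 0.326 to 1.26 CPM and lnc-TIMM21-5 at 1.08 to 2.19 CPM, so their checks rest on few counts. Of 9 B-cell precursor markers 8 were expressed, with a summed level of 4599 to 5864 CPM, and VPREB1 was at or near 0. T-cell markers summed to at most 0.535 CPM and erythroid markers to at most 0.0574 CPM. The plasma-cell marker SDC1 was present and JCHAIN was not. Of 3 myeloid markers, CD14 and LYZ together stayed at or under 1.15 CPM, whereas MPO, a granule enzyme, was between 79.4 and 445 CPM. In bulk RNA, fewer cells that express a gene and less of its RNA per cell cannot be told apart.

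The family was well covered. All 10 members passed the filter on low counts, from 160 to 398 counts per sample for BBC3 up to 4634 to 7562 for BCL2. Genes were compared with each other only per length, as RPKM (CPM divided by the kilobases of merged exons). On that scale PMAIP1 had the highest mean over the 27 samples, at 51.6 RPKM (range 37.7 to 73.9). MCL1 followed at 37.8 RPKM, then the effector BAX at 28.7 RPKM, BCL2 at 25.2 RPKM and BCL2L1 at 18.9 RPKM. The lower levels were those of BAD at 16.7 RPKM, BAK1 at 11.7 RPKM, BID at 8.80 RPKM, BCL2L11 at 5.41 RPKM and BBC3 at 4.31 RPKM. Among neighbours in this order, the ranges of BCL2 (22.7 to 29.0 RPKM) and BCL2L1 (16.7 to 20.6 RPKM) were the only ones that did not overlap. The order depends on the length used, since the longest transcript in place of merged exons put BAX (54.6 RPKM) above MCL1 (51.7 RPKM), BAD above BCL2L1, BID above BAK1 and BBC3 above BCL2L11. Levels of BAK1 are less certain, because it has processed pseudogenes (BAK1P1 and BAK1P2) and only uniquely mapped reads were counted. MCL1 shares bases on its own strand with ADAMTSL4-AS1, and BCL2 with the lncRNA ENSG00000267766, where reads that overlap both genes were not counted.

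**Figure D1:**
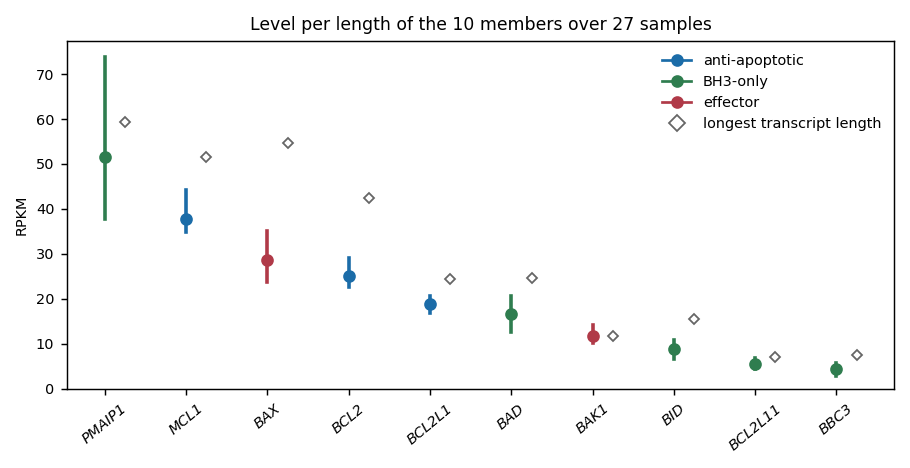
Level of each family gene in RPKM (y axis) over the 27 samples, with the mean over merged exons as a filled point, the lowest to highest sample as a bar, and the mean with the longest transcript's length as an open diamond. PMAIP1 at 51.6 RPKM and MCL1 at 37.8 RPKM lead, BBC3 at 4.31 RPKM is lowest, and neighbouring bars overlap everywhere except between BCL2 and BCL2L1.

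The first comparison asked whether a member differed anywhere among the 10 treatment groups. A member is called here, and is said to have risen or fallen, where the adjusted p of edgeR's quasi-likelihood test is under 0.05 after Benjamini-Hochberg adjustment over all 16268 genes tested, in 1 fit of all 27 samples. BCL2 (edgeR adjusted p = 0.0113) and BAD (edgeR adjusted p = 0.0487) were called, 2 of 10 members, where 16.1% of all tested genes were. MCL1 (edgeR adjusted p = 0.0676), BAK1 (0.0805), BID (0.0823) and BCL2L11 (0.0964) came next, and BBC3 was last (edgeR adjusted p = 0.906). With the replicate number as a block, which removes shifts shared by all samples of 1 number, 8 of 10 members were called, where 48.6% of all genes were. The members not called with the block were BCL2L1 (edgeR adjusted p = 0.0534) and BBC3 (0.0758), and PMAIP1 was lost without either sample of lnc-NKX2-3-1 GapmeR1 (0.102 to 0.145). The call of BCL2 held when any 1 of the 27 samples was left out, but not without all samples of replicate 1 (edgeR adjusted p = 0.278) or of replicate 2 (0.519). That of BAD held in 7 of 27 (without NTC replicate 2 or 3, lnc-TIMM21-5 GapmeR1 replicate 3, lnc-TIMM21-5 GapmeR2 replicate 2, lnc-NKX2-3-1 GapmeR2 replicate 2 or 3, or lnc-ASTN1-1 GapmeR2 replicate 1) and was lost without each of the other 20 samples (edgeR adjusted p 0.0534 to 0.288). It was also lost without all samples of replicate 1 (0.748) or of replicate 2 (0.515), with RLE scaling (0.0543), with no filter on low counts (0.0503) and from counts regardless of strand (0.159). With the block, BAD was called without any 1 sample.

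The amplitude was small for every member. Between the highest and the lowest of the 10 group means, the ratio of CPM was 1.49 for PMAIP1, 1.46 for BAD, 1.38 for BBC3, 1.32 for BID and for BCL2L11, and from 1.14 (BCL2L1) to 1.27 (BAX) for the others. lnc-NKX2-3-1 GapmeR1 had the highest group mean of BCL2, BCL2L1, MCL1, BCL2L11 and PMAIP1 and the lowest of BAD and BAK1. lnc-RTN4R-1 GapmeR2 had the highest mean of BID, BAD, BAX and BAK1 and the lowest of BCL2.

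**Figure D2:**
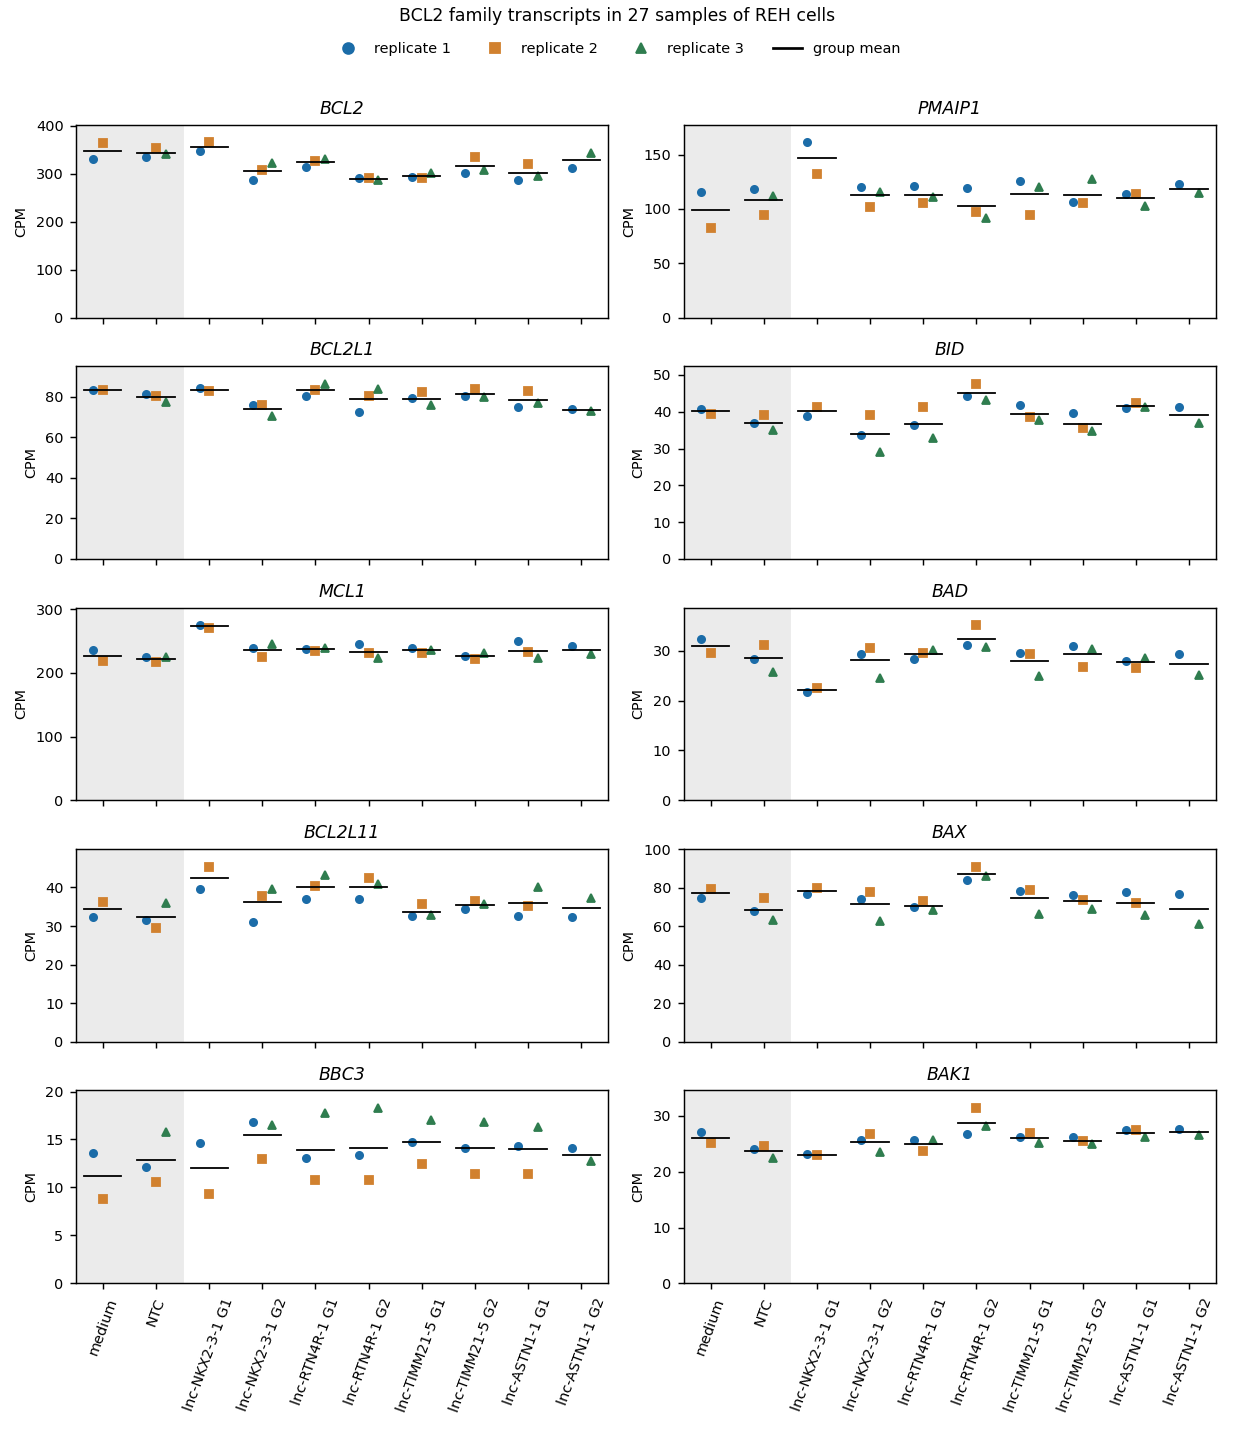
CPM (y axis, from 0) of the 10 family genes in each of the 27 samples, by treatment group (x axis, G1 and G2 for GapmeR1 and GapmeR2, controls shaded), with a symbol for each replicate number and a line at the group mean. PMAIP1 and MCL1 stand highest and BAD lowest with lnc-NKX2-3-1 GapmeR1, BAX stands highest with lnc-RTN4R-1 GapmeR2, and BBC3 is high in replicate 3 of most groups.

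Each GapmeR was then compared with the 5 controls, to see whether lowering a lncRNA by either oligonucleotide moved the family. All 8 of these comparisons share the same control samples, so their results are not independent of each other. Where samples of a GapmeR are said below to lie outside the controls, the share of all genes that did so was not counted. lnc-NKX2-3-1 GapmeR1 gave the most calls, 4 of 10 members (MCL1, BCL2L11 and PMAIP1 up, BAD down), where 19.7% of all tested genes were called. lnc-RTN4R-1 GapmeR2 gave 3 of 10 members (BAX and BAK1 up, BCL2 down), where 9.56% of all genes were called. The median log2 fold change of the 10 members was 0.06 with the former and 0.18 with the latter, against -0.004 and 0.0055 over all genes.

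No member was called by edgeR with any of the other 6 GapmeRs. For lnc-NKX2-3-1 GapmeR2, where 0.0307% of all genes were called, 2 members had an unadjusted p under 0.05. The other 5 had 1 such member each, where 2.32% (lnc-RTN4R-1 GapmeR1), 0.209% (lnc-TIMM21-5 GapmeR1), 0.0676% (lnc-TIMM21-5 GapmeR2), 1.2% (lnc-ASTN1-1 GapmeR1) and 0.0184% (lnc-ASTN1-1 GapmeR2) of all genes were called. DESeq2 called BCL2 with lnc-TIMM21-5 GapmeR1 and with lnc-ASTN1-1 GapmeR1 and no member with the other 4.

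The replicate block added calls. lnc-NKX2-3-1 GapmeR2 then had 2 members called (BCL2 down and BBC3 up, 3.17% of all genes), lnc-RTN4R-1 GapmeR1 had 1 (BCL2L11 up, 8.8%), and lnc-TIMM21-5 GapmeR1 (2.98%) and lnc-ASTN1-1 GapmeR1 (4.77%) had 1 each (BCL2 down). lnc-RTN4R-1 GapmeR2 had 5 (26.3%), with BCL2L11 and BID beside the 3 named. lnc-NKX2-3-1 GapmeR1 kept its 4 (35.8%), and lnc-TIMM21-5 GapmeR2 (0.584%) and lnc-ASTN1-1 GapmeR2 (0.135%) had 0.

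Most of the 7 calls made without the block were lost when replicate 1 or 2 was left out. Without all samples of replicate 1 none was kept, and without those of replicate 2 PMAIP1 with lnc-NKX2-3-1 GapmeR1 was the one kept. Medium and lnc-NKX2-3-1 GapmeR1 then hold a lone sample each, and fewer genes were called in all in both comparisons. The loss of these calls therefore cannot be told apart from a general loss of calls. Without all samples of replicate 3 BAK1 was the one lost.

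**Figure D3:**
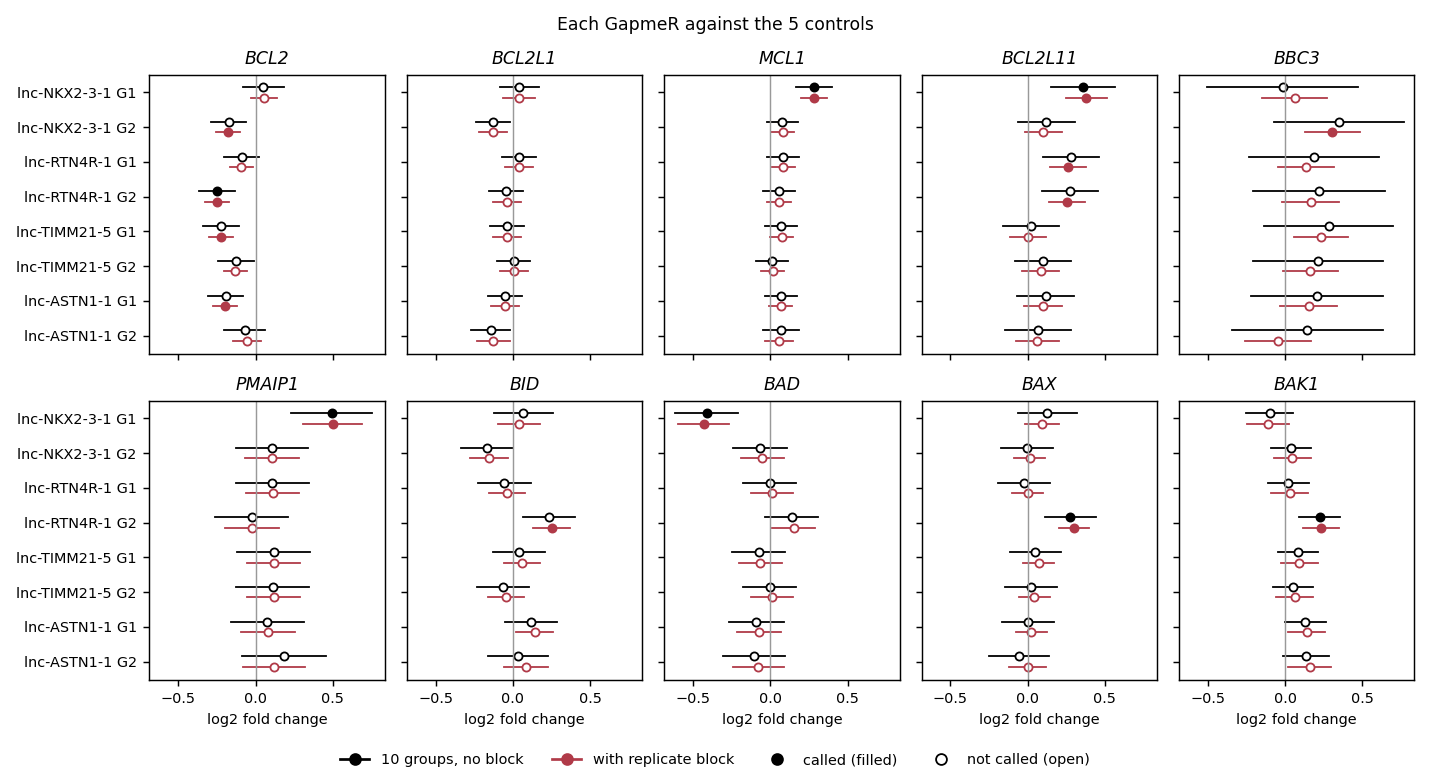
Log2 fold change (x axis) of each member with each of the 8 GapmeRs against the 5 controls, with 95% intervals, without the replicate block in black and with it in red, filled where called. Filled black points are those of MCL1, BCL2L11, PMAIP1 and BAD with lnc-NKX2-3-1 GapmeR1 and of BCL2, BAX and BAK1 with lnc-RTN4R-1 GapmeR2.

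BCL2, the founding guard of the family (whole gene chr18:63123346-63320128, minus strand; this and the positions that follow are of GRCh38 in GENCODE v44), was the member with the lowest p across groups. It was at 329 and 363 CPM in medium and 333, 352 and 341 CPM in NTC, in order of replicate number. With lnc-RTN4R-1 GapmeR2 it was at 289.7, 292 and 287 CPM. These 3 samples lay close together and below all 5 controls, and BCL2 fell by 0.25 on the log2 scale (SE 0.056, edgeR adjusted p = 0.00458), to 289.6 ± 2.13 CPM (SD, n = 3) from 344 ± 13.9 CPM (SD, n = 5). This call held without any 1 of the 8 samples and with the block (edgeR adjusted p = 2.17e-06), and was lost without all samples of replicate 1 (0.0602) or of replicate 2 (0.17).

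Most other GapmeRs also had lower BCL2 estimates. With lnc-TIMM21-5 GapmeR1, BCL2 was at 292, 290.3 and 301 CPM. With lnc-ASTN1-1 GapmeR1 it was at 286, 321 and 295 CPM. With lnc-NKX2-3-1 GapmeR2 it was at 286, 307 and 321 CPM. All 9 of these samples were under the lowest control, at 329 CPM, yet none of the 3 differences passed the test (log2 fold changes -0.22, -0.19 and -0.17, edgeR adjusted p = 0.151, 0.117 and 0.623). With the block all 3 did (edgeR adjusted p = 0.000171, 0.000419 and 0.0054), that of lnc-NKX2-3-1 GapmeR2 not without its replicate 1 (edgeR adjusted p = 0.0575). The 3 GapmeRs share the same 5 controls, and the share of all genes without overlap was not counted.

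The remaining GapmeRs left BCL2 within or near the controls. lnc-TIMM21-5 GapmeR2 gave 302, 334 and 308 CPM, lnc-RTN4R-1 GapmeR1 gave 314, 326 and 329 CPM, and lnc-ASTN1-1 GapmeR2 gave 312 and 342 CPM in its replicates 1 and 3. lnc-NKX2-3-1 GapmeR1 stood at the other end, with 347 and 365 CPM and the one estimate above 0 among the 8 GapmeRs (0.05, 95% interval -0.08 to 0.18, edgeR adjusted p = 0.654). The ranges of all 4 groups overlapped that of the controls, for lnc-RTN4R-1 GapmeR1 by a single sample at the lowest control's level.

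MCL1, a guard with a short-lived protein (chr1:150560895-150579738), moved with 1 GapmeR. It was at 235 and 218 CPM in medium and 226, 217 and 225 CPM in NTC. With lnc-NKX2-3-1 GapmeR1 it was at 275 and 271 CPM, above every other sample of the series. MCL1 rose with that GapmeR by 0.28 on the log2 scale (SE 0.056, edgeR adjusted p = 0.000674), to 273 ± 3.03 CPM (SD, n = 2) from 224 ± 7.38 CPM (SD, n = 5). The call held without any 1 of the 7 samples, and was lost without all samples of replicate 1 (edgeR adjusted p = 0.0588) or of replicate 2 (0.108). With lnc-NKX2-3-1 GapmeR2 it was at 239.5, 225 and 246 CPM, which overlapped the controls (log2 fold change 0.08, 95% interval -0.02 to 0.18). All 8 GapmeRs had an estimate above 0, from 0.01 (lnc-TIMM21-5 GapmeR2) to 0.28, against the same controls, and 1 of them was called.

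BCL2L1 (chr20:31664452-31723989) was the steadiest member. Its lowest sample was at 70.3 CPM, with lnc-NKX2-3-1 GapmeR2, and its highest at 86.4 CPM, with lnc-RTN4R-1 GapmeR1. The log2 fold changes with the 8 GapmeRs lay between -0.14 and 0.04, and none was called with or without the block. Samples given lnc-NKX2-3-1 GapmeR2 were at 75.8, 76.0 and 70.3 CPM, all under the lowest control at 77.4 CPM (log2 fold change -0.13, 95% interval -0.24 to -0.02, edgeR adjusted p = 0.787). Here too the share of all genes without overlap was not counted.

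Among the BH3-only genes, BCL2L11 (chr2:111119378-111168444) encodes BIM, which binds all the guards. It was at 32.4 and 36.3 CPM in medium and 31.5, 29.4 and 36.0 CPM in NTC. With lnc-NKX2-3-1 GapmeR1 it was at 39.6 and 45.4 CPM, above all controls. BCL2L11 rose there by 0.36 on the log2 scale (SE 0.10, edgeR adjusted p = 0.0124). The call was lost without lnc-NKX2-3-1 GapmeR1 replicate 2 (edgeR adjusted p = 0.254), its higher sample. With the block the call held without any 1 sample.

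Both lnc-RTN4R-1 GapmeRs had BCL2L11 above the controls. GapmeR1 gave 37.1, 40.3 and 43.2 CPM. GapmeR2 gave 37.0, 42.3 and 40.8 CPM. All 6 samples lay above the highest control, at 36.3 CPM, and the share of all genes without overlap was not counted. Each GapmeR alone missed the threshold (log2 fold changes 0.28 and 0.27, edgeR adjusted p = 0.125 and 0.052) and passed it with the block (edgeR adjusted p = 0.00162 and 0.000954). Without the block, that of GapmeR2 also passed by DESeq2 (DESeq2 adjusted p = 0.0357) and, by edgeR, with RLE scaling, with no filter or a stricter one, from counts regardless of strand and without replicate 3 (edgeR adjusted p 0.0358 to 0.0493). The estimate was above 0 with all 8 GapmeRs and as low as 0.02 with lnc-TIMM21-5 GapmeR1.

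PMAIP1 (chr18:59899996-59904305) encodes NOXA, which binds MCL1 and speeds its breakdown. It was at 116 and 82.5 CPM in medium and 119, 94.4 and 112 CPM in NTC. With lnc-NKX2-3-1 GapmeR1 it was at 162 and 132 CPM. These were the highest samples of the series, and the difference was the largest of any member in any comparison with the controls, with a rise of 0.49 on the log2 scale (SE 0.13, edgeR adjusted p = 0.0076). Without lnc-NKX2-3-1 GapmeR1 replicate 1 the call was lost (edgeR adjusted p = 0.183). With the block it held without any 1 sample. Spread within groups was wide for this gene, as the samples of medium show.

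BAD (chr11:64269830-64284704), whose protein is held inactive by phosphorylation while survival signals are present, went the other way. It was at 32.4 and 29.6 CPM in medium and 28.4, 31.2 and 25.7 CPM in NTC. With lnc-NKX2-3-1 GapmeR1 it was at 21.6 and 22.6 CPM. Both were below every other sample of the series, and BAD fell by 0.41 on the log2 scale (SE 0.10, edgeR adjusted p = 0.00397), to 22.1 ± 0.646 CPM (SD, n = 2) from 29.4 ± 2.58 CPM (SD, n = 5). The call was lost without lnc-NKX2-3-1 GapmeR1 replicate 1 (edgeR adjusted p = 0.0773) and held without any 1 sample with the block. With lnc-NKX2-3-1 GapmeR2 the samples were at 29.2, 30.6 and 24.4 CPM, within or just under the range of the controls.

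BID (chr22:17734138-17774770), which caspase-8 cleaves to link death receptors to mitochondria, was highest with lnc-RTN4R-1 GapmeR2. It was at 44.2, 47.6 and 43.1 CPM there, against 40.8 and 39.5 CPM in medium and 37.1, 39.0 and 35.1 CPM in NTC. The groups did not overlap, yet the difference missed the threshold (log2 fold change 0.23, 95% interval 0.07 to 0.40, edgeR adjusted p = 0.0713) and passed it with the block (edgeR adjusted p = 0.00111). Samples given lnc-ASTN1-1 GapmeR1, at 41.0, 42.4 and 41.3 CPM, also lay above all controls, and BID was not called there with or without the block. The share of all genes without overlap was not counted.

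BBC3 (chr19:47220822-47232766), the PUMA gene and a p53 target, was not called in any comparison without the block. It ranged from 8.77 CPM (medium replicate 2) to 18.3 CPM (lnc-RTN4R-1 GapmeR2 replicate 3). Its log2 fold changes with the 8 GapmeRs ran from -0.02 to 0.35, and their intervals were the widest of the family, as that of lnc-NKX2-3-1 GapmeR2 (-0.07 to 0.77) shows. That GapmeR gave 16.9, 12.9 and 16.6 CPM against 13.6 and 8.77 CPM in medium and 12.1, 10.6 and 15.8 CPM in NTC, which overlapped. With the block BBC3 was called there (0.31, edgeR adjusted p = 0.0434), but not without NTC replicate 1, medium replicate 2, or lnc-NKX2-3-1 GapmeR2 replicate 1 or 2 (edgeR adjusted p 0.0899 to 0.218).

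The effectors moved with lnc-RTN4R-1 GapmeR2. BAX (chr19:48954815-48961798) was at 74.8 and 79.6 CPM in medium and 67.8, 74.6 and 63.5 CPM in NTC. With lnc-RTN4R-1 GapmeR2 it was at 84.2, 91.0 and 86.0 CPM. All 3 samples were above all 5 controls, and BAX rose by 0.28 on the log2 scale (SE 0.081, edgeR adjusted p = 0.029), to 87.1 ± 3.52 CPM (SD, n = 3) from 72.1 ± 6.38 CPM (SD, n = 5). With lnc-RTN4R-1 GapmeR1 it was at 70.2, 73.3 and 68.6 CPM, inside the range of the controls (log2 fold change -0.02, 95% interval -0.19 to 0.14).

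BAK1 (chr6:33572547-33580293) was at 27.1 and 25.2 CPM in medium and 24.0, 24.6 and 22.5 CPM in NTC. With lnc-RTN4R-1 GapmeR2 it was at 26.8, 31.4 and 28.1 CPM. The lowest of these samples lay just under the highest control, so the groups overlapped, and BAK1 rose by 0.22 on the log2 scale (SE 0.063, edgeR adjusted p = 0.0249). It was not called from counts regardless of strand (edgeR adjusted p = 0.124). GGNBP1 lies on its opposite strand, and whether that bears on the lost call was not tested. BAK1 was not called either when the comparison was fitted on its own samples only (edgeR adjusted p = 0.147) or with no filter on low counts (0.197).

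Both effector calls rested on single libraries. Without NTC replicate 1, NTC replicate 3, or lnc-RTN4R-1 GapmeR2 replicate 2 or 3, BAX was not called (edgeR adjusted p 0.0743 to 0.14) and neither was BAK1 (0.0509 to 0.221). With the block BAX held without any 1 of the 8 samples, and BAK1 was lost only without lnc-RTN4R-1 GapmeR2 replicate 2 (edgeR adjusted p = 0.0767).

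The ratio of BAX to BCL2, taken within each sample from CPM, was highest with lnc-RTN4R-1 GapmeR2, at 0.301 ± 0.0107 (SD, n = 3, range 0.291 to 0.312). It was 0.223 ± 0.00563 (SD, n = 2) in medium and 0.200 ± 0.0131 (SD, n = 3) in NTC. lnc-TIMM21-5 GapmeR1 came next at 0.253 ± 0.0285 (SD, n = 3), and no sample of another group reached 0.291. This ratio was computed after both genes had been seen to move and has no test.

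Levels of PMAIP1, MCL1, BAX and BAD with the GapmeRs against lnc-TIMM21-5 and lnc-ASTN1-1 stayed near the controls. That was not so for every member. As given above, BCL2 was below all controls with lnc-TIMM21-5 GapmeR1 and with lnc-ASTN1-1 GapmeR1. BCL2L1 was below all controls with lnc-ASTN1-1 GapmeR2, and BID was above all of them with lnc-ASTN1-1 GapmeR1. PMAIP1 was at 126, 94.6 and 120.1 CPM with lnc-TIMM21-5 GapmeR1, 106, 105 and 127 CPM with its GapmeR2, 113, 114 and 103 CPM with lnc-ASTN1-1 GapmeR1 and 123 and 114 CPM with its GapmeR2. MCL1 was at 239, 231 and 236 CPM, 226, 221 and 231 CPM, 249, 232 and 223 CPM and 242 and 229 CPM in the same order. BAX was at 78.2, 78.9 and 66.3 CPM, 76.0, 73.7 and 69.1 CPM, 78.0, 72.1 and 65.8 CPM and 77.0 and 61.3 CPM. Every one of these groups overlapped the controls in all 3 genes. BAD was at 29.5, 29.3 and 24.98 CPM, 30.8, 26.8 and 30.3 CPM, 27.8, 26.5 and 28.5 CPM and 29.4 and 25.2 CPM, again with overlap, and with its lowest sample at 24.98 CPM, against 21.6 and 22.5 CPM with lnc-NKX2-3-1 GapmeR1.

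MPO stood apart in the cells given lnc-RTN4R-1 GapmeR2. It was at 291 to 445 CPM in the 3 samples of lnc-RTN4R-1 GapmeR2 and at 162 to 194 CPM in both samples of lnc-NKX2-3-1 GapmeR1, against 84.8 to 132 CPM in the controls, with CD14 and LYZ together at or under 1.15 CPM in every sample. Its part in the results on these GapmeRs was not tested.

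With both GapmeRs of a lncRNA pooled, as the study pooled them, fewer members stood out. The study describes 6 against 6 samples for each lncRNA, tested with DESeq2. Here 5 or 6 samples were set against 5 controls by edgeR, so calls are not like for like. For lnc-NKX2-3-1, MCL1 rose by 0.16 on the log2 scale (SE 0.043, edgeR adjusted p = 0.027), 1 of 10 members where 5.29% of all genes were called. For lnc-RTN4R-1, BCL2 fell by 0.17 (SE 0.046, edgeR adjusted p = 0.033) and BCL2L11 rose by 0.28 (SE 0.074, edgeR adjusted p = 0.029), 2 of 10 members where 4.66% of all genes were called. BCL2L11 was the one of these members whose groups did not overlap, and the share of all genes without overlap was not counted. For lnc-TIMM21-5 edgeR called 0 members (0.166% of all genes, 1 member at an unadjusted p under 0.05, 1 by DESeq2) and for lnc-ASTN1-1 also 0 (0.664% of all genes, 2 members at an unadjusted p under 0.05, 0 by DESeq2).

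These pooled calls depended on the fit. With the block, lnc-NKX2-3-1 had 4 members called (18.9% of all genes), namely MCL1, BCL2L11, PMAIP1 and BAD, and lnc-RTN4R-1 had 3 (15.6%), namely BCL2, BCL2L11 and BAX. lnc-TIMM21-5 (2.62%) and lnc-ASTN1-1 (3.01%) then had 1 each, BCL2, with log2 fold changes of -0.18 and -0.14. Of the calls that the block added, those of PMAIP1 (edgeR adjusted p 0.107 to 0.124) and BAD (0.0736 to 0.205) were lost without either sample of lnc-NKX2-3-1 GapmeR1, that of BAD also without medium replicate 1, and that of BCL2L11 for lnc-NKX2-3-1 without GapmeR1 replicate 2 (0.0503). BAX was lost without NTC replicate 1 or lnc-RTN4R-1 GapmeR2 replicate 2 or 3 (0.0526 to 0.0902), and BCL2 for lnc-ASTN1-1 without its GapmeR1 replicate 1 or 3 (0.0745 to 0.078). Fitted on its own samples only, neither pooled comparison kept a member (MCL1 edgeR adjusted p = 0.662, BCL2 0.278, BCL2L11 0.119), and with NTC alone as control neither did (MCL1 0.0617, BCL2 0.129, BCL2L11 0.0557). With no filter on low counts MCL1 (0.185) and BCL2 (0.189) were lost, and PMAIP1 was called for lnc-NKX2-3-1 (0.00371). Without all samples of replicate 1 or of replicate 2 no pooled call was kept (0.189 to 0.586). Single libraries also decided them. MCL1 was lost without lnc-NKX2-3-1 GapmeR1 replicate 1 or 2, medium replicate 2 or NTC replicate 2 (edgeR adjusted p 0.0614 to 0.27). BCL2 was lost without any 1 of the samples of lnc-RTN4R-1 GapmeR2, medium replicate 2, NTC replicate 2 or NTC replicate 3 (0.051 to 0.119). BCL2L11 was lost without medium replicate 1, NTC replicate 1 or 2, lnc-RTN4R-1 GapmeR1 replicate 3, or lnc-RTN4R-1 GapmeR2 replicate 2 or 3 (0.0587 to 0.105).

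Whether both GapmeRs of a lncRNA acted alike on the family was tested as their direct difference, which does not use the controls. For lnc-NKX2-3-1 they differed in 3 of 10 members (17.8% of all genes). BCL2 was higher with GapmeR1 by 0.22 on the log2 scale (SE 0.069, edgeR adjusted p = 0.0248). MCL1 was higher by 0.205 on that scale (SE 0.062, edgeR adjusted p = 0.0227). BAD was lower with GapmeR1 (log2 difference -0.35, SE 0.11, edgeR adjusted p = 0.0246). In all 3 genes the groups did not overlap. These genes were picked by the call, though, and the share of all genes without overlap was not counted. All 3 calls were lost with no filter on low counts (edgeR adjusted p 0.0723 to 0.123) and on the comparison's own samples only (0.0888 to 0.128), where PMAIP1 was called instead (0.000614 and 0.0401). With the block 7 members differed (33.4% of all genes), with BCL2L1, BCL2L11, PMAIP1 and BID, all higher with GapmeR1, added. Of these, BCL2L1 was lost without GapmeR1 replicate 1 (edgeR adjusted p = 0.159), BCL2L11 without GapmeR1 replicate 2 (0.0508), and BID without any sample but GapmeR2 replicate 2 (0.0728 to 0.204).

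For lnc-RTN4R-1 both GapmeRs differed in 2 of 10 members (9.09% of all genes). BAX was lower with GapmeR1 (log2 difference -0.30, SE 0.091, edgeR adjusted p = 0.0364) and so was BID (-0.29, SE 0.091, edgeR adjusted p = 0.0471). The samples did not overlap in either gene, and here too the share of all genes without overlap was not counted. BID was lost with no filter on low counts (0.0627) and on own samples only (0.117). With the block BCL2, higher with GapmeR1, and BAK1, lower with it, were called as well, 4 of 10 members (26.3% of all genes), BAK1 not without GapmeR1 replicate 2 or GapmeR2 replicate 2 or 3 (edgeR adjusted p 0.0544 to 0.17). BCL2L11 did not pass (log2 difference 0.01, 95% interval -0.20 to 0.21).

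lnc-TIMM21-5 and lnc-ASTN1-1 had 0 members that differed between GapmeRs by edgeR, with and without the block, 0 at an unadjusted p under 0.05 without it, and 0 by DESeq2, where 0.141% and 0.553% of all genes were called (0.375% and 1.67% with the block). For BCL2 the intervals of the difference were -0.22 to 0.03 and -0.27 to 0.02.

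These differences leaned on single libraries too. For lnc-NKX2-3-1, BAD was called only without GapmeR2 replicate 3 and lost without each of the other 4 samples (edgeR adjusted p 0.0736 to 0.167), BCL2 was lost without GapmeR1 replicate 2 or GapmeR2 replicate 1 (0.104 to 0.217), and MCL1 without either sample of GapmeR1 or GapmeR2 replicate 2 (0.0861 to 0.105). For lnc-RTN4R-1, BAX was lost without any 1 of the 6 samples (0.0551 to 0.142) and BID without any but GapmeR1 replicate 2 (0.0637 to 0.187). With the block all of them held without any 1 sample.

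**Figure D4:**
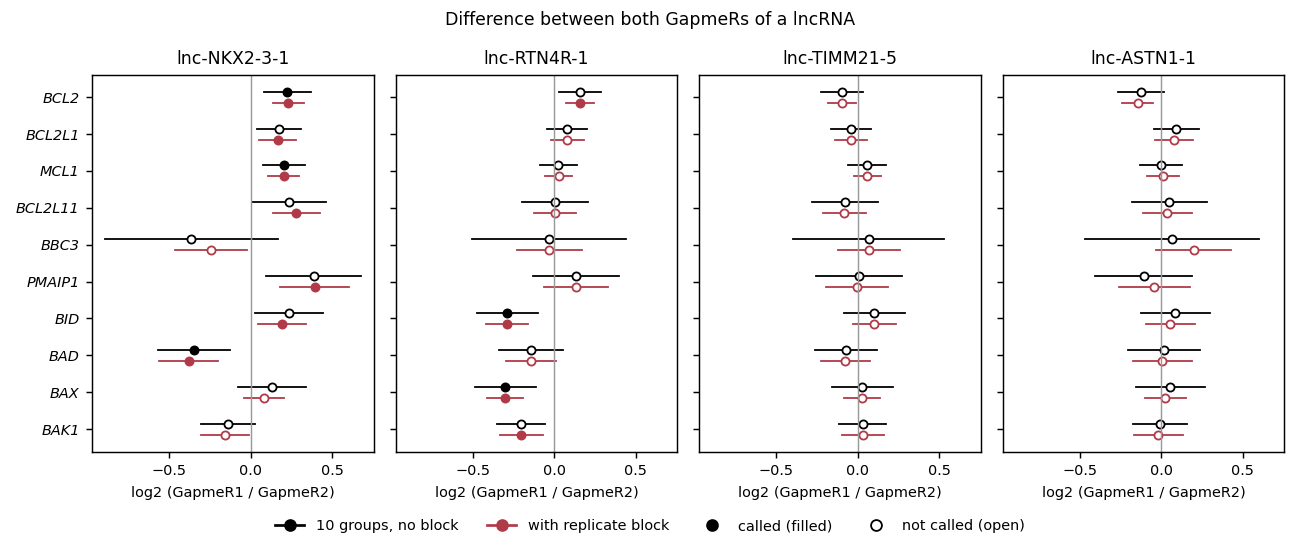
Log2 ratio of GapmeR1 to GapmeR2 (x axis) for the 10 members (y axis) and each of the 4 lncRNAs, with 95% intervals, without the replicate block in black and with it in red, filled where called. Filled black points are those of BCL2, MCL1 and BAD for lnc-NKX2-3-1 and of BID and BAX for lnc-RTN4R-1, and no point is filled for lnc-TIMM21-5 or lnc-ASTN1-1.

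NTC was compared with medium to see what a GapmeR without a target did to the family. No member was called by edgeR (0% of all genes), with 0 members at an unadjusted p under 0.05 and 0 by DESeq2. With the block 0 members were called as well (0.0676% of all genes). NTC samples of BAX were at 67.8, 74.6 and 63.5 CPM and those of medium at 74.8 and 79.6 CPM, the former all below the latter by a narrow margin (log2 difference -0.17, 95% interval -0.38 to 0.04). BCL2L1 (at most 81.5 CPM in NTC, at least 83.0 CPM in medium), BID (39.05 and 39.46 CPM) and BAK1 (24.65 and 25.21 CPM) were likewise lower in every NTC sample. The other members overlapped, and the share of all genes without overlap was not counted. Estimates were below 0 for 8 members and above 0 for 2, with a median of -0.075 against 0.002 over all genes. The interval for BCL2 was -0.16 to 0.13.

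Part of the family also differed between replicate numbers. With the groups held equal, 5 members differed between replicate 3 and the mean of replicates 1 and 2, where 54.1% of all genes did. BBC3 was higher in replicate 3 by 0.39 on the log2 scale (SE 0.051, edgeR adjusted p = 3.31e-08) and BCL2L11 by 0.12 (SE 0.035, edgeR adjusted p = 0.00354). BAX was lower (log2 difference -0.17, SE 0.030, edgeR adjusted p = 5.45e-06), as were BID (-0.14, edgeR adjusted p = 0.00108) and BAD (-0.10, edgeR adjusted p = 0.0407). BCL2 (0.02), MCL1 (-0.01), BCL2L1 (-0.02), PMAIP1 (0.03) and BAK1 (-0.07) did not pass. Medium and lnc-NKX2-3-1 GapmeR1 hold no replicate 3, so comparisons that include them set unequal shares of that replicate against each other unless the block is used. The methods put the replicates on different days without saying that a number marks the same day in every group, and the labels record no difference between days.

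**Figure D5:**
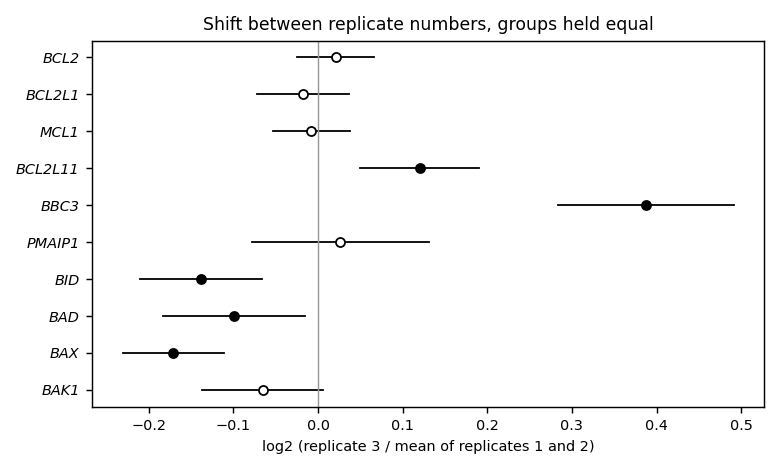
Log2 ratio of replicate 3 to the mean of replicates 1 and 2 (x axis) for the 10 members (y axis), with groups held equal and 95% intervals, filled where called. BBC3 stands farthest to the right at 0.39 and BAX farthest to the left at -0.17, and the points of BCL2, MCL1, BCL2L1, PMAIP1 and BAK1 are open.

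Other genes of the pathway came from 3 lists. Of 13 further BCL2 family genes 9 passed the filter (BCL2A1, BCL2L10, BCL2L14 and BOK did not). HRK, a BH3-only gene, was the 1 of 9 called across the 10 groups (edgeR adjusted p = 0.00149), where 16.1% of all genes were. BIK (edgeR adjusted p = 0.170) and BCL2L2 (0.211) came next. HRK was at 6.93 ± 1.59 CPM (SD, n = 3) with lnc-RTN4R-1 GapmeR2 and 13.2 ± 1.41 CPM (SD, n = 5) in the controls, and fell by 0.94 on the log2 scale (SE 0.16, edgeR adjusted p = 0.000342). BCL2L13, a mitochondrial family member, fell with the same GapmeR by 0.20 (SE 0.063, edgeR adjusted p = 0.0428). The other 7 tested genes of the list were not called there, so 2 of 9 were, where 9.56% of all genes were called. HRK was higher with lnc-RTN4R-1 GapmeR1 than with GapmeR2 by 1.13 on the log2 scale (SE 0.18, edgeR adjusted p = 8.38e-05). No gene of this list was called with any of the other 7 GapmeRs against the controls without the block. With the block, HRK also fell with lnc-ASTN1-1 GapmeR1 (log2 fold change -0.36, edgeR adjusted p = 0.00796), where 4.77% of all genes were called.

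Of 21 genes of the mitochondrial apoptosis machinery, all tested, 4 rose and 0 fell with lnc-NKX2-3-1 GapmeR1. Of all genes 19.7% were called there, 8.14% up and 11.55% down. The share called in either direction was thus near that of all genes. A common direction was not tested for the set. Among those that rose were CASP2, an initiator caspase, BIRC2, an inhibitor of apoptosis, and BIRC5, which is survivin. BIRC5 rose by 0.39 on the log2 scale (SE 0.11, edgeR adjusted p = 0.0126). Across the 10 groups, BIRC2 and APAF1 did not pass the test (edgeR adjusted p = 0.176 each). With the block, 10 of the 21 were called with this GapmeR, 9 of them up, where 35.8% of all genes were called (17.6% up and 18.2% down).

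Of 14 regulators of the family, all tested, 1 was called across the 10 groups, where 16.1% of all genes were. It was FBXW7, which marks MCL1 and other proteins for breakdown (edgeR adjusted p = 2.28e-07). HUWE1 (edgeR adjusted p = 0.0602), an MCL1 ubiquitin ligase, and FOXO1 (0.0619) came next. FBXW7 was at 81.6 ± 2.16 CPM (SD, n = 3) with lnc-RTN4R-1 GapmeR2 and 52.6 ± 3.15 CPM (SD, n = 5) in the controls, a rise of 0.63 on the log2 scale (SE 0.055, edgeR adjusted p = 9.7e-09). It was 57.0 ± 3.53 CPM (SD, n = 3) with GapmeR1, and the difference between both GapmeRs passed the test (log2 difference -0.52, SE 0.062, edgeR adjusted p = 2.09e-06). With lnc-NKX2-3-1 GapmeR1, 19.7% of all genes were called, 8.14% up and 11.55% down. The share of regulators called in either direction was near that, and a common direction was not tested for the set. Of the 14 regulators, 3 rose and 0 fell. They were FOXO1 (0.50 on the log2 scale, SE 0.13, edgeR adjusted p = 0.00678), a transcription factor, the ubiquitin ligase HUWE1 (0.32, edgeR adjusted p = 0.0179) and the cell-cycle factor E2F1 (0.23, edgeR adjusted p = 0.0166). With the block 4 of 9, 14 of 21 and 10 of 14 genes of the 3 lists were called across the groups, where 48.6% of all genes were.

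Patterns over the 10 group means of log2 CPM were compared as a description, since the means share scaling and an uneven mix of replicates. Among the members, PMAIP1 and MCL1 ran most alike (r = 0.882, n = 10 group means), and PMAIP1 and BAD most oppositely (r = -0.947, n = 10). lnc-NKX2-3-1 GapmeR1 is the extreme group of all 3 genes. Among all tested genes, those most like BCL2, the member with the lowest p across groups, were PDCD6IP (r = 0.946), GNPAT (r = 0.916) and ROCK1 (r = 0.914). The group means of PDCD6IP lay between 7.39 and 7.47 on the log2 CPM scale, with lnc-RTN4R-1 GapmeR2 lowest and lnc-NKX2-3-1 GapmeR1 highest, as for BCL2.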

How the data were processed

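RNA of REH cells was sequenced in 27 samples of 10 groups, with the group and replicate number of each taken from its label. The authors aligned reads to hg38 with STAR, whose gene counting gave the deposited values: raw counts per gene of uniquely mapped reads that overlap 1 gene, with no normalisation, in 1 unstranded and 2 stranded columns. The annotation release behind them was not given in the sources used here. The labels name ribodepleted stranded total RNA and the methods poly-A selection, so RNAs without a poly-A tail may or may not have been captured. Column 4, the strand column holding 95.2% to 95.4% of both strand columns, was used, and 71.5% to 77.0% of reads per sample were assigned to a gene. The remaining summary rows of the tables stayed out of library sizes.

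Counts were tested with edgeR (4.0.16, R 4.3.3) by robust quasi-likelihood F tests in 1 fit of all 27 samples with 1 coefficient per group, TMM scaling and filterByExpr (minimum count 10, minimum total count 15), which left 16268 genes. Pooled groups and the controls were weighted by their number of samples. P-values were adjusted over all genes by the Benjamini-Hochberg method, with a threshold of 0.05. Standard errors come from the F statistics and intervals are 95%. CPM and RPKM are relative to TMM library sizes. A prior count of 2 went into log2 CPM. Symbols and positions are from GENCODE v44. The fits were tested on simulated counts.

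The main fit keeps the study's pooling of both GapmeRs of a lncRNA against controls and, as in its methods, has no covariate. It differs from the study in using edgeR in 1 fit of all samples with 1 coefficient per GapmeR, and in the number of samples compared. DESeq2 and a fit on own samples only are alternatives. The block adds the replicate number. The methods put the replicates on different days but do not say that a number marks 1 day in every group. The mean correlation of deviations from group means was 0.263 over 109 pairs of samples of different groups with the same number (-0.035 to 0.505), and -0.130 over 218 pairs with different numbers, so pairing by number is inferred from the data and not stated, and fits with and without it are given. P-values measure the spread between these samples. Alternatives were DESeq2 (1.42.0), RLE scaling, no filter or at least 10 counts in every sample, NTC as the only controls, own samples only, unstranded counts, the longest transcript's length, the block, and each sample or replicate number left out.

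The members and the 3 gene lists were chosen with earlier results of these data known. The rule for names took all 10 members, up to 3 genes per list by p across groups, those called in a comparison where 3 or fewer, and the 3 genes most like the most varying member, taken as the one with the lowest p across groups (BCL2). CASP2 and BIRC5 fall outside it and were named after their values were seen. The values of 1 gene of the list of mitochondrial apoptosis machinery are not reported here. GapmeR sequences came from the study's list of oligonucleotides.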

Additional observations from a re-analysis of the deposited data

Results flagged for a closer look

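Of 50 sets of 5 or 6 samples (the samples of a lncRNA or the controls, for each member), 1 held a sample far from the others, where chance gives about 1 in 20. It was BID in lnc-ASTN1-1 GapmeR2 replicate 3, at 5.21 on the log2 CPM scale, where the other 4 samples of that lncRNA lay between 5.36 and 5.41.

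Both GapmeRs of a lncRNA differed in 5 results by edgeR. The log2 difference of GapmeR1 from GapmeR2 of lnc-NKX2-3-1 was 0.205 for MCL1 (edgeR adjusted p = 0.0227), -0.35 for BAD (0.0246) and 0.22 for BCL2 (0.0248). That of lnc-RTN4R-1 was -0.30 for BAX (edgeR adjusted p = 0.0364) and -0.29 for BID (0.0471).

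A further 6 were added to the edgeR calls by the replicate block. They were BCL2L11 (0.28, edgeR adjusted p = 0.00203), PMAIP1 (0.39, 0.00528), BCL2L1 (0.17, 0.0189) and BID (0.19, 0.0383) for lnc-NKX2-3-1, and BAK1 (-0.20, 0.0173) and BCL2 (0.16, 0.00425) for lnc-RTN4R-1. Of these, some also differed without the block for lnc-NKX2-3-1: PMAIP1 by DESeq2 (adjusted p = 0.0428) and, by edgeR, with no filter (0.000614) and on own samples only (0.0401), BCL2L1 by DESeq2 (0.036) and BCL2L11 by edgeR without replicate 3 (0.0314).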

How the results depend on the processing

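No direction of a called member reversed under any alternative. The replicate block moved the number of members called to 8 across the 10 groups (from 2). Between the GapmeRs of lnc-NKX2-3-1 it gave 7 (from 3) and between those of lnc-RTN4R-1 it gave 4 (from 2). Pooled, it gave 4 for lnc-NKX2-3-1 (from 1) and 3 for lnc-RTN4R-1 (from 2). By single GapmeR it gave 2 for lnc-NKX2-3-1 GapmeR2 (from 0), 1 for lnc-RTN4R-1 GapmeR1 (from 0) and 5 for lnc-RTN4R-1 GapmeR2 (from 3). It gave 1 each for lnc-TIMM21-5 pooled, its GapmeR1, lnc-ASTN1-1 pooled and its GapmeR1 (from 0). It raised 25 of 180 results past the threshold and ended 0, and the other 155 stayed on their side. DESeq2 gave 5 across the groups, where it called 3548 genes in all against 2622 in the main fit. Between the GapmeRs of lnc-NKX2-3-1 it gave 5 (3079 genes in all, from 2898). It gave 1 each for lnc-ASTN1-1 GapmeR1 (250 genes, from 196), lnc-TIMM21-5 GapmeR1 (57 genes, from 34) and lnc-TIMM21-5 pooled. DESeq2, RLE scaling and at least 10 counts in every sample each gave 4 for lnc-RTN4R-1 GapmeR2, with BCL2L11 added. These settings called 1782, 1575 and 1581 genes in all there, from 1555. NTC as the only controls gave 0 for lnc-RTN4R-1 pooled (426 genes in all, from 758) and for lnc-NKX2-3-1 pooled (548 genes, from 860). Own samples only gave 0 for both pooled comparisons, with 0 (lnc-NKX2-3-1) and 71 (lnc-RTN4R-1) genes called in all. The smaller number of samples is part of that setting. Between the GapmeRs of lnc-NKX2-3-1 it gave 1 (PMAIP1, with BCL2, MCL1 and BAD lost, 1992 genes in all, from 2898). Between those of lnc-RTN4R-1 it gave 1 (BAX, with BID lost, 882 genes, from 1479). It gave 2 for lnc-RTN4R-1 GapmeR2 (996 genes, from 1555). RLE scaling and unstranded counts each gave 1 across the groups (2642 and 2563 genes in all, from 2622). No filter gave 4 across the groups (3843 genes in all, from 2622). It gave 1 each between the GapmeRs of lnc-NKX2-3-1 (2996 genes, from 2898) and of lnc-RTN4R-1 (1450, from 1479). For lnc-RTN4R-1 pooled it also gave 1 (921 genes, from 758). It swapped MCL1 for PMAIP1 in lnc-NKX2-3-1 pooled (939 genes, from 860). Between the GapmeRs of lnc-NKX2-3-1 it swapped BCL2, MCL1 and BAD for PMAIP1. With no filter or unstranded counts BCL2L11 took the place of BAK1 for lnc-RTN4R-1 GapmeR2. The cause of these shifts was not tested.

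Leaving out each sample or replicate number moved the members called to 0 to 4 across the groups, 0 to 4 between the GapmeRs of lnc-NKX2-3-1, 0 to 4 for its GapmeR1 and 0 to 3 pooled, 0 to 1 between those of lnc-RTN4R-1, 0 to 4 for its GapmeR2 and 0 to 2 pooled, and 0 elsewhere. Without all samples of replicate 1, edgeR called no member in any of these comparisons. In those named, fewer genes were then called in all than with every sample. With the block, a choice made after the results were seen, the ranges were 7 to 9, 5 to 7, 4 to 4, 3 to 5, 3 to 4, 4 to 6 and 2 to 5 in the same order, 0 to 2 for lnc-NKX2-3-1 GapmeR2, and 0 to 1 for lnc-ASTN1-1 pooled. Without a whole replicate number a lone sample is assumed to vary like the other groups.

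With the longest transcript's length, levels were 59.4 RPKM for PMAIP1, 54.6 for BAX, 51.7 for MCL1, 42.5 for BCL2, 24.6 for BAD, 24.4 for BCL2L1, 15.6 for BID, 7.43 for BBC3 and 7.05 for BCL2L11, and BAK1 did not move.

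Limits are the 2 or 3 samples per group, the missing replicates, counts as low as 160 for BBC3, RNA without protein, and a single cell line.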
